A study of Homo sapiens with 5 samples.

Results

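Integrins are the transmembrane receptors by which cells hold to the extracellular matrix, and 10 of their alpha and beta chains are described here: ITGA2, ITGA3, ITGA5, ITGA6 and ITGAV, and ITGB1, ITGB3, ITGB4, ITGB5 and ITGB8. They were taken by gene symbol, and all 10 were found among the 25382 genes of the count table and passed the filter on low counts, which left 13297 genes. They lie on chromosomes 2 (ITGA6, ITGAV), 3 (ITGB5), 5 (ITGA2), 7 (ITGB8), 10 (ITGB1), 12 (ITGA5) and 17 (ITGA3, ITGB3, ITGB4). Cells of MDA-MB-231, a triple-negative line from human breast cancer that was kept in DMEM with serum, were sorted by the shear stress they withstood into weakly adherent cells, with 3 libraries dated 6, 12 and 15 March, and strongly adherent cells, with 2 libraries dated 6 and 15 March. Libraries from total RNA held 19630386 to 21707459 reads assigned to genes. Separate cultures are not stated in the labels, so p-values rest on a spread between samples that may be only technical. Differences present before the separation and a response to the shear itself cannot be told apart, and in bulk RNA fewer cells of a kind cannot be told apart from less RNA per cell.

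An integrin at the cell surface is a pair of 1 alpha and 1 beta chain, and the pair decides which matrix protein is bound. ITGB1 pairs with all 5 alpha chains described here. With ITGA2 it binds collagens, with ITGA3 or ITGA6 laminins, and with ITGA5 fibronectin. ITGAV also pairs with ITGB3 and ITGB5, which bind vitronectin among other ligands, and with ITGB8, which binds the latent form of TGF-beta. ITGB4 pairs with ITGA6 alone and anchors epithelial cells to laminin through hemidesmosomes. Inside the cell, talin and kindlin bind the tails of most beta chains and switch integrins on.

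Without a date block, no difference in the RNA of the 10 chains between weakly and strongly adherent cells passed the threshold. At an adjusted p under 0.05 (edgeR, quasi-likelihood F test, Benjamini-Hochberg), 0 of the 10 chains were called, where 2.68% of all tested genes were. For 10 chains, 0 calls are near that share. After removal of each library's trend with coding length, again 0 were called, where 2.12% of all tested genes were (1.03% higher and 1.09% lower). At an unadjusted p under 0.05 there were 2, ITGA2 and ITGB3, where 14.2% of all tested genes passed. DESeq2, given all 25382 genes, called 0 chains, where 297 genes were higher and 138 lower. Only 17958 of these genes had any read, so its share of genes called is not like that of the filtered fits. Limma-voom also called 0, where 226 of 13297 genes were higher and 101 lower. The collagen receptor chain ITGA2 lay 1.19-fold higher in weakly adherent cells and the vitronectin receptor chain ITGB3 1.42-fold lower. The median log2 fold change, weakly minus strongly adherent, was 0.03 over the 10 chains and -0.00054 over all tested genes, and the median absolute value was 0.06 over the chains and 0.10 over all tested genes. The genes of these medians were not matched to the chains for read count. Groups without overlap were seen for 1 of the 10, ITGB3, where 30.0% of all tested genes did not overlap.

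With the shared date as a block, 1 chain was called higher and 1 lower, where 11.1% of all tested genes were called (5.93% higher and 5.21% lower). These were ITGA2, at a log2 fold change of 0.20 (SE 0.07, adjusted p = 0.023 by edgeR), and ITGB3, at -0.49 (SE 0.15, adjusted p = 0.016 by edgeR). That fit has 1 residual degree of freedom, and the weakly adherent library of 12 March, which has no partner, carries no weight in it. On data simulated without a date effect, 14.6% of its calls were false, and 9.5% of those of the fit without the block. Both shares are above the threshold of 0.05, so the calls of both fits are less firm than their p-values read. With the trend of each library with coding length removed in the same fit, ITGA2 had 0.17 (adjusted p = 0.12) and ITGB3 -0.49 (adjusted p = 0.018). Coding length moved with adhesion in these libraries: the median log2 fold change of tested genes was 0.01 for coding sequences of 2 to 4 kb, the class of 9 of the 10 chains, and 0.11 for 4 to 6 kb, the class of ITGB4. It was largest, at 0.30, for coding sequences over 6 kb, a class that holds none of the chains.

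**Figure D1:**
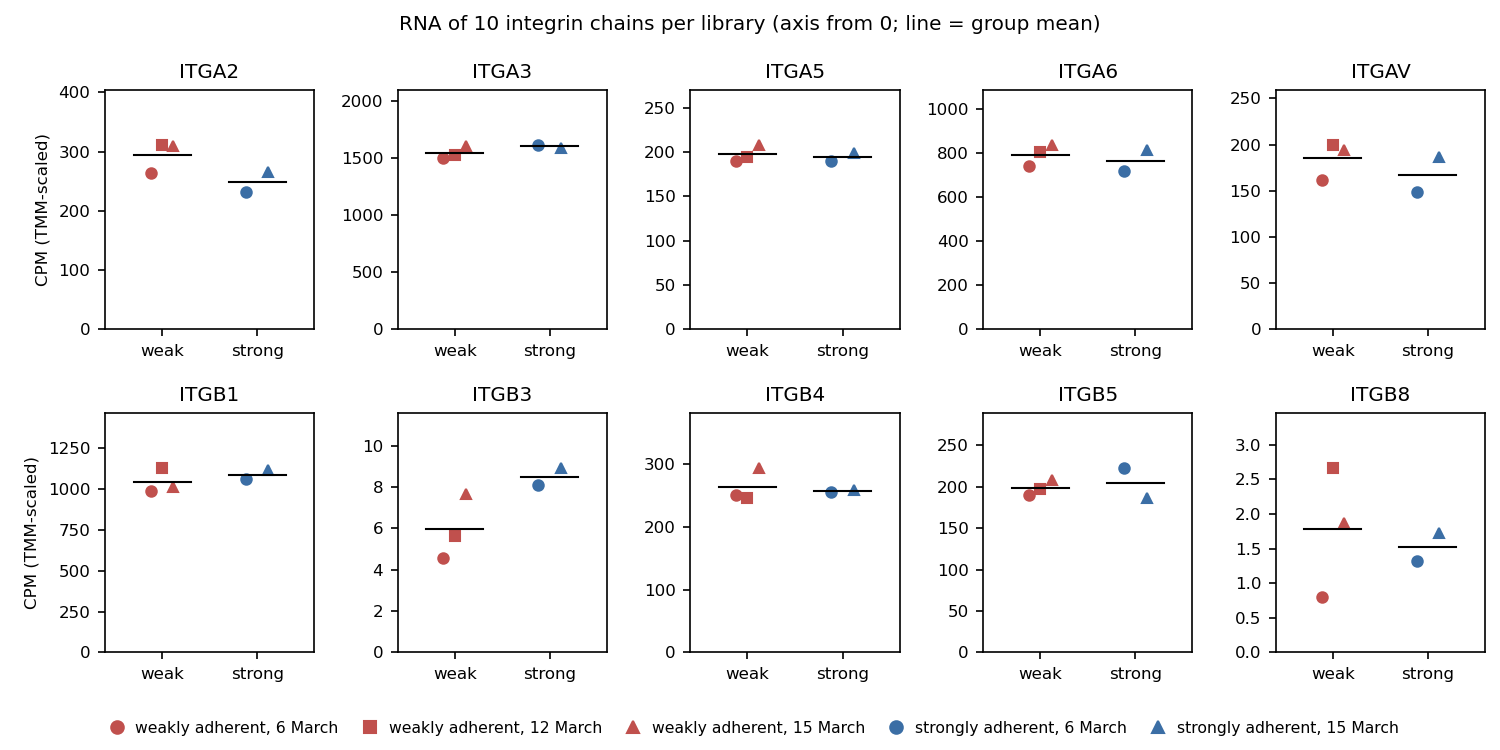
Normalised read counts (CPM, TMM-scaled, axes from 0) of the 10 integrin chains in each library, weakly adherent to the left of strongly adherent, with lines at the group means and 1 marker shape per date. Only the ITGB3 panel shows groups that do not overlap, from 4.56 to 7.68 CPM in weakly and 8.10 to 8.91 CPM in strongly adherent cells.

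Among alpha chains, ITGA2, which makes the collagen receptor with ITGB1, had 264, 311 and 310.0 CPM in weakly adherent cells on 6, 12 and 15 March, against 231 and 265 CPM in strongly adherent cells on 6 and 15 March. The weakly adherent library of 6 March lay just under the strongly adherent one of 15 March, so the groups overlapped, but within each date the weakly adherent library was higher. Weakly adherent cells averaged 295 ± 27.0 CPM (SD, n = 3) and strongly adherent cells 248 ± 23.8 CPM (SD, n = 2), with a log2 fold change of 0.25 (SE 0.09, 95% interval 0.05 to 0.45, adjusted p = 0.22 by edgeR). The differences within the dates were 0.19 on 6 March and 0.23 on 15 March. With strongly adherent cells of 6 March left out, the log2 fold change was 0.15 (adjusted p = 0.76). Without the weakly adherent library of 6 March it was 0.32 (adjusted p = 0.060), close to the threshold but not past it.

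ITGAV, the alpha chain shared by the vitronectin receptors, was called between the dates, given further on, and not between the adhesion groups. It had 162, 199 and 195 CPM in weakly adherent cells on 6, 12 and 15 March, against 148 and 186 CPM in strongly adherent cells on 6 and 15 March. Both libraries of 6 March were the lowest of the 5, and the groups overlapped. The log2 fold change between the adhesion groups was 0.15 (SE 0.12, 95% interval -0.12 to 0.41, adjusted p = 0.69 by edgeR), or 0.12 within 6 March and 0.07 within 15 March. With strongly adherent cells of 6 March left out, the log2 fold change over the remaining libraries was -0.0080, while the 15 March pair, which does not use that library, gave 0.07.

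The laminin receptor chains ITGA3 and ITGA6 were the most abundant alpha chains and did not differ between the groups beyond the spread. ITGA3 lay between 1503 and 1608 CPM in weakly adherent cells and at 1612 and 1591 CPM in strongly adherent cells, a log2 fold change of -0.05 (95% interval -0.22 to 0.11). ITGA6 lay between 739 and 834 CPM in weakly adherent cells and at 716 and 814 CPM in strongly adherent cells, a log2 fold change of 0.05 (95% interval -0.13 to 0.23). ITGA5, the fibronectin receptor chain, spanned 190 to 208 CPM in weakly and 191 to 199 CPM in strongly adherent cells, a log2 fold change of 0.02 (95% interval -0.14 to 0.18). For these 3 chains the intervals limit a difference to between 0.861-fold and 1.17-fold.

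Among beta chains, ITGB3 had few reads and, of the 10 chains, the largest difference in size between the groups. It had 96, 110 and 169 reads in weakly adherent cells on 6, 12 and 15 March, against 172 and 196 reads in strongly adherent cells on 6 and 15 March. In CPM these were 4.56, 5.62 and 7.68 in weakly and 8.10 and 8.91 in strongly adherent cells, so every weakly adherent library lay below both strongly adherent ones, though that of 15 March came close. Weakly adherent cells averaged 5.95 ± 1.59 CPM (SD, n = 3) and strongly adherent cells 8.50 ± 0.574 CPM (SD, n = 2). The log2 fold change was -0.51 (SE 0.19, 95% interval -0.94 to -0.09, adjusted p = 0.24 by edgeR).

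The ITGB3 difference within 6 March was larger than that within 15 March, and whether the dates differ was not tested. On 6 March the weakly adherent library lay 1.78-fold below the strongly adherent one, with counts of 96 and 172 whose exact 95% Poisson intervals, 77.8 to 117 and 147 to 200 reads, do not overlap. On 15 March it lay 1.16-fold below, with counts of 169 and 196 whose intervals, 144 to 196 and 170 to 225 reads, overlap. These intervals cover counting error only. With any 1 library left out, the log2 fold change of ITGB3 ran from -0.74, without the weakly adherent library of 15 March, to -0.35, without that of 6 March, and no such fit called it (lowest adjusted p = 0.061).

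ITGB1, the common partner, had 986, 1127 and 1014 CPM in weakly adherent cells on 6, 12 and 15 March, against 1059 and 1117 CPM in strongly adherent cells on 6 and 15 March. The weakly adherent library of 12 March was the highest of all 5, while on 6 and 15 March the weakly adherent library was the lower of its pair. The log2 fold change was -0.06 (95% interval -0.24 to 0.11, adjusted p = 0.85 by edgeR), and -0.12 with the date block (adjusted p = 0.28).

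ITGB4, the hemidesmosome chain, lay at 251, 247 and 293 CPM in weakly adherent cells and 256 and 258 CPM in strongly adherent cells (log2 fold change 0.04, 95% interval -0.15 to 0.22). Its coding sequence of 5469 bases is the longest of the 10, and with the coding length trend removed its log2 fold change was -0.13 (adjusted p = 0.65). ITGB5, another vitronectin receptor chain, lay at 190, 197 and 208 CPM in weakly adherent cells and 222 and 186 CPM in strongly adherent cells, and the sign of its difference was not the same on both dates (-0.23 on 6 March, 0.16 on 15 March). ITGB8 had 17, 52 and 41 reads in weakly adherent cells and 28 and 38 reads in strongly adherent cells, with a 95% interval of the difference from 0.594-fold to 2.25-fold. Within weakly adherent cells the counts of 17 and 52 reads have exact Poisson intervals, 9.90 to 27.2 and 38.8 to 68.2 reads, that do not overlap.

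**Figure D2:**
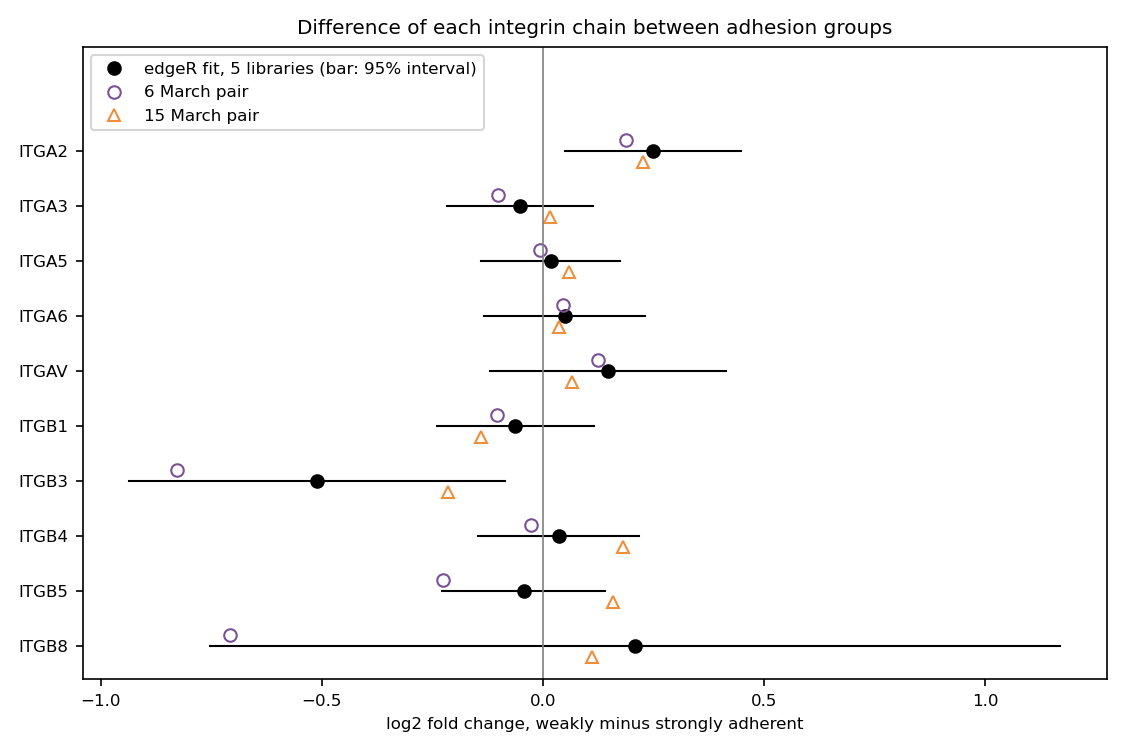
Log2 fold change (weakly minus strongly adherent) of each chain from the edgeR fit on 5 libraries, with bars for the 95% interval, and the log2 difference within the 6 March pair (circles) and the 15 March pair (triangles). The intervals of ITGA2 (0.05 to 0.45) and ITGB3 (-0.94 to -0.09) lie off 0, and 5 of the 10 chains have the same sign on both dates.

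Between dates, 9 of the 10 chains lay higher on 15 than on 6 March with adhesion as a covariate, with 2 called higher and 0 lower, where 9.29% of all tested genes were called (6.74% higher and 2.55% lower). ITGAV had a log2 difference of 0.29, 15 minus 6 March (SE 0.07, adjusted p = 0.00068 by edgeR), and was 1.20-fold higher in weakly and 1.25-fold higher in strongly adherent cells. ITGA2 had a log2 difference of 0.21 (SE 0.07, adjusted p = 0.026 by edgeR), and was 1.18-fold higher in weakly and 1.15-fold higher in strongly adherent cells. Neither ITGB3 (log2 difference 0.41, adjusted p = 0.065) nor ITGA6 (0.18, adjusted p = 0.082) passed. ITGB3 was 1.68-fold higher on 15 March in weakly adherent cells and 1.10-fold higher in strongly adherent cells. What the dates stand for is not given in the labels, and this fit has the same terms as the date block and 1 residual degree of freedom.

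The sequence before the annotated start of ITGA2 and of ITGAV, the chains that were higher on 15 March, is shown because both were called between the dates. These are the 250 bases before the start, from RefSeq on GRCh38.p14, plus strand, for ITGA2 on chromosome 5 (chr5:52989102-52989351) and for ITGAV on chromosome 2 (chr2:186589806-186590055). Capitals mark the GC box GGGCGG, which was searched on both strands. The AP-1 motif TGANTCA and the TEAD motif GGAATG were also searched on both strands and were found in neither sequence.
ITGA2: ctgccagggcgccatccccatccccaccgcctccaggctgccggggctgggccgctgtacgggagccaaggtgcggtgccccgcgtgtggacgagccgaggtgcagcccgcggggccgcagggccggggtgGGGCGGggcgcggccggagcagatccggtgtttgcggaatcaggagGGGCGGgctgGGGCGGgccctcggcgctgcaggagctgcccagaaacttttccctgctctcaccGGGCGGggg
ITGAV: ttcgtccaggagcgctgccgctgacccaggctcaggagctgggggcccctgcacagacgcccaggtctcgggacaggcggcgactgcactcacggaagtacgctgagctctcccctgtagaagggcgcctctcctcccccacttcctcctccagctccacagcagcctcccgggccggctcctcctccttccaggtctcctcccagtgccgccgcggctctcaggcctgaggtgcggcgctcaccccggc
Both sequences are rich in G and C, 76.4% for ITGA2 and 70.8% for ITGAV, against a median of 58% over 35116 windows of the same length. ITGA2 has 4 GC boxes and ITGAV has none, while 42.6% of all windows hold at least 1, and 6.57% hold the AP-1 and 11.9% the TEAD motif. ITGAV has a further annotated start, whose window is not shown and holds 40.8% G and C. Of the 10 chains, 7 had an annotated start in this source. A high content was not particular to the 2 chains called between the dates. The richest windows of ITGA5, ITGA6, ITGB8, ITGB5 and ITGB1 held 70%, 71.6%, 71.2%, 75.2% and 78.4%, each with GC boxes. Further windows of ITGA6, ITGB5 and ITGB1 held 41.6% to 56.4%. A match is a description of the letters, not a binding site.

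Per kilobase of the longest annotated transcript, the order of the chains was nearly the same in all 5 libraries. ITGA3 came first, at 308 to 330 CPM per kb, followed by ITGB1, at 261 to 298, and ITGA6, at 127 to 148 CPM per kb. ITGB5, ITGA5 and ITGB4 followed at 41.7 to 50.8 CPM per kb, with ranges over the 5 libraries that overlapped, so these neighbours could not be ordered. ITGA2 (29.4 to 39.5 CPM per kb) and ITGAV (21.1 to 28.4) came next, then ITGB3 (1.14 to 2.23) and ITGB8 (0.0923 to 0.304). Divided by coding length, the first 3 and the last 2 kept their places, while ITGA2 stood above ITGA5 and ITGB4, and ITGAV above ITGB4. Which transcripts these cells expressed is not known, so the middle of the order depends on the length used.

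ITGA3 and ITGB1 made up most of the alpha and of the beta pool in both groups. Of the summed counts per kilobase of the 5 alpha chains, ITGA3 made up 55.9% ± 1.08 in weakly and 58.2% ± 2.35 in strongly adherent cells (SD, n = 3 and 2), and ITGA6 made up 24.9% ± 0.430 in weakly and 24.2% ± 1.44 in strongly adherent cells. ITGA2 made up 6.22%, 6.98% and 6.66% in weakly adherent cells on 6, 12 and 15 March, against 5.34% and 5.85% in strongly adherent cells on 6 and 15 March. All weakly adherent libraries thus lay above both strongly adherent ones, at the smallest p that 3 against 2 libraries allow in a two-sided exact permutation test (p = 0.1, or 0.8 adjusted over the 10 shares).

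Of the beta pool, ITGB1 made up 75.0% ± 2.07 in weakly and 75.7% ± 1.75 in strongly adherent cells (SD, n = 3 and 2), with ITGB5 and ITGB4 at 10.8% to 13.5% each in all libraries. ITGB3 made up 0.328%, 0.364% and 0.524% in weakly adherent cells on 6, 12 and 15 March, against 0.539% and 0.581% in strongly adherent cells on 6 and 15 March (two-sided exact permutation test, p = 0.2, adjusted 0.8). The ITGB3 shares did not overlap, but the weakly adherent library of 15 March lay close to the strongly adherent one of 6 March. ITGB8 reached at most 0.0786% in any library.

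**Figure D3:**
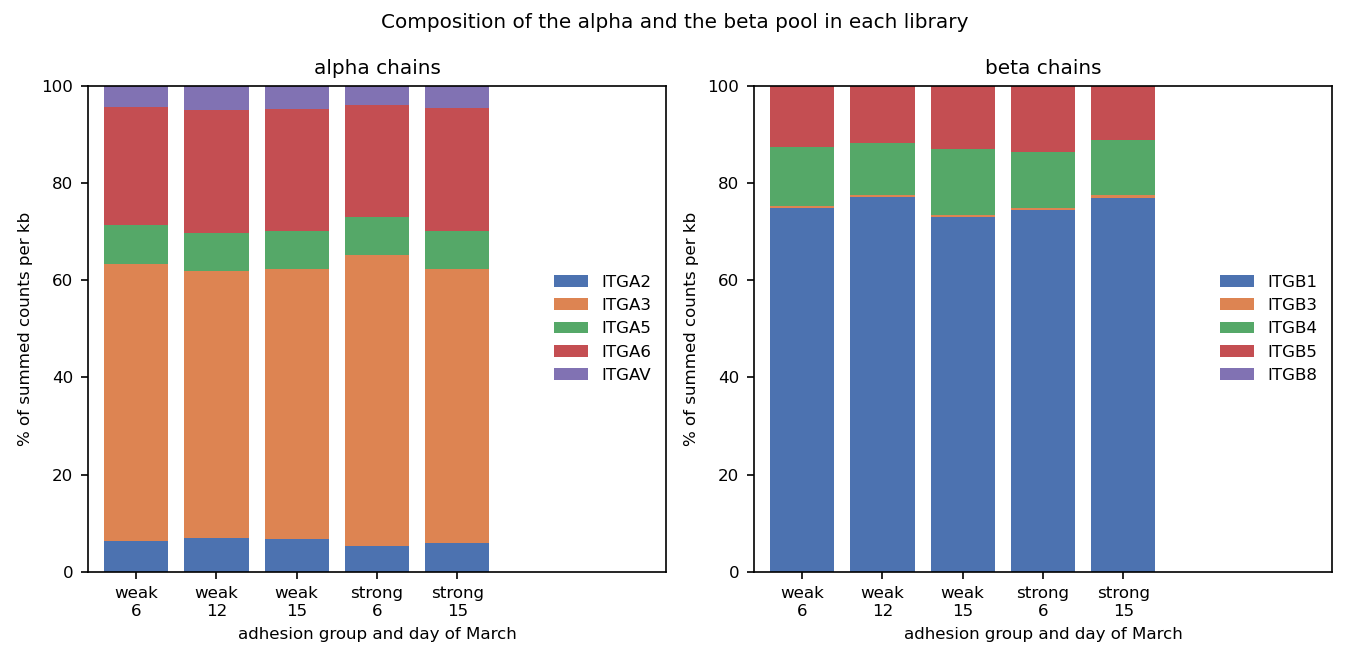
Stacked bars, from 0 to 100%, of the share of each chain in the summed counts per kilobase of the 5 alpha chains and of the 5 beta chains, for each weakly and strongly adherent library. ITGA3 and ITGB1 fill most of their pools in all 5 libraries, with means of 55.9% in weakly and 58.2% in strongly adherent cells for ITGA3 and 75.0% and 75.7% for ITGB1, and the slices of ITGB3 and ITGB8 are too thin to read.

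The ratio of the alpha to the beta pool per kilobase was 1.54 ± 0.0727 in weakly and 1.48 ± 0.0249 in strongly adherent cells (SD, n = 3 and 2, two-sided exact permutation test, p = 0.4). All 5 alpha chains together exceeded ITGB1, their common partner, 2.06-fold ± 0.153 in weakly and 1.96-fold ± 0.0124 in strongly adherent cells (SD, n = 3 and 2, two-sided exact permutation test, p = 0.6). The 10 chains together took 0.422% to 0.474% of all gene counts in weakly and 0.439% and 0.470% in strongly adherent cells, so the groups overlapped.

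A ratio of 2 chains within a library needs no scaling between libraries, and 9 ratios of known partners were compared. For the collagen receptor pair, the ITGA2 to ITGB1 count ratio was 0.267, 0.276 and 0.306 in weakly adherent cells on 6, 12 and 15 March, against 0.218 and 0.237 in strongly adherent cells on 6 and 15 March. Every weakly adherent library had the higher ratio. The difference was 0.31 on the log2 scale, with 0.29 on 6 March and 0.37 on 15 March (two-sided exact permutation test, p = 0.1, adjusted over the 9 ratios 0.9).

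For the vitronectin receptor pair, the ITGAV to ITGB3 count ratio was 35.5, 35.5 and 25.3 in weakly adherent cells on 6, 12 and 15 March, against 18.3 and 20.9 in strongly adherent cells on 6 and 15 March. The groups again did not overlap. The difference was 0.70 on the log2 scale, but 0.95 on 6 March and 0.28 on 15 March (two-sided exact permutation test, p = 0.2, adjusted 0.9). No ratio could pass an adjusted threshold, because 0.1 is the smallest p of this design.

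For the other partners of ITGB1 the groups overlapped. The log2 ratio to ITGB1 differed by 0.01 for ITGA3, 0.08 for ITGA5, 0.11 for ITGA6 and 0.21 for ITGAV, weakly minus strongly adherent, with exact permutation p = 0.9, 0.5, 0.4 and 0.3. With each library left out in turn the difference ran from 0.025 to 0.15 for ITGA5, 0.058 to 0.17 for ITGA6 and 0.090 to 0.34 for ITGAV. It was lowest without the weakly adherent library of 15 March for ITGA5 and ITGA6 and without the strongly adherent one of 6 March for ITGAV. These ratios share ITGB1 and are not independent. For ITGA3 the difference was 0.0027 on 6 March and 0.16 on 15 March. Set against the strongly adherent mean, the weakly adherent library of 12 March, which has no partner, gave -0.12 for ITGA3 and -0.051 for ITGA5. For the laminin pair of the hemidesmosome, the ITGA6 to ITGB4 ratio was 2.94, 3.25 and 2.85 in weakly and 2.80 and 3.15 in strongly adherent cells (log2 difference 0.02, exact permutation p = 0.8). For ITGAV with ITGB5 the log2 difference was 0.19 (exact permutation p = 0.6) and for ITGAV with ITGB8 it was 0.08 (exact permutation p = 1).

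**Figure D4:**
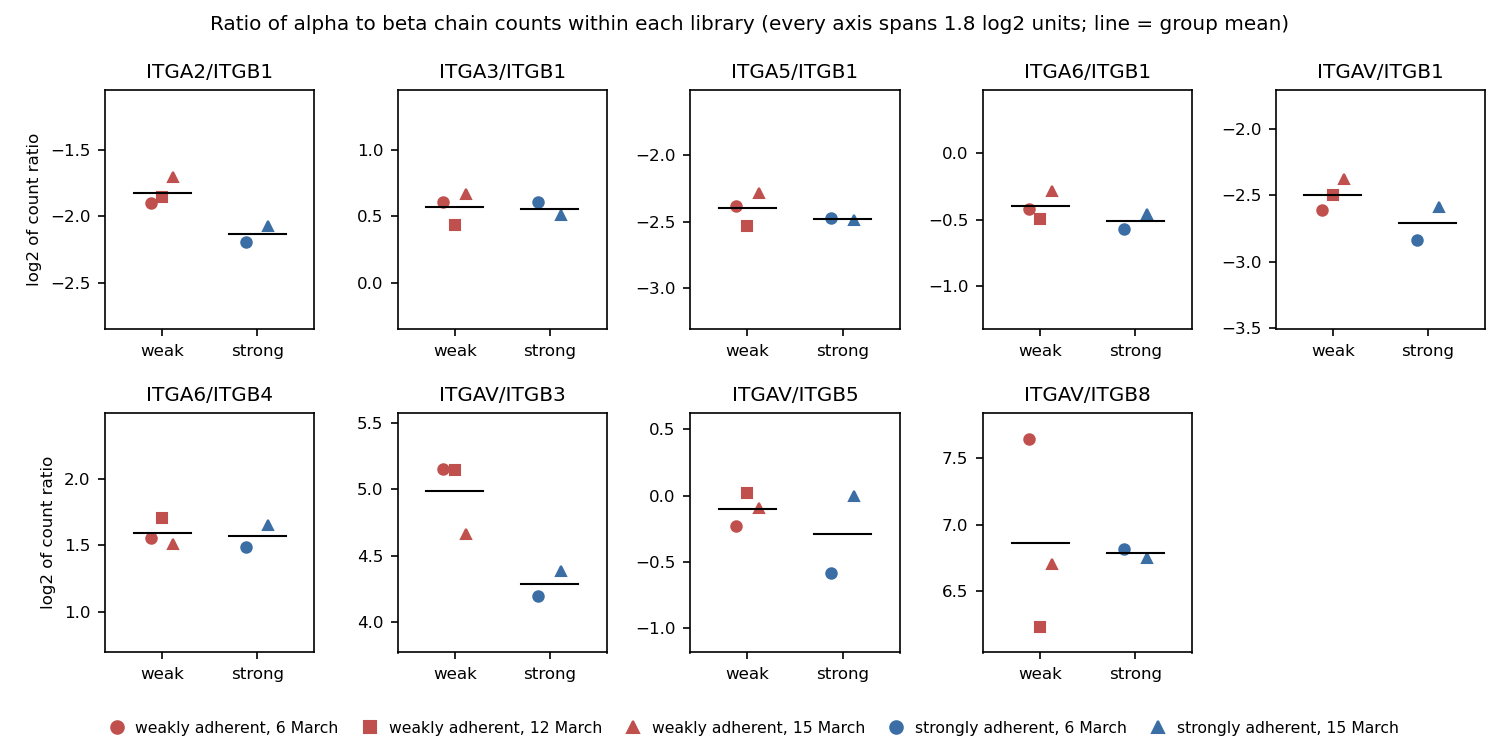
Log2 of the ratio of alpha to beta chain counts in each library for 9 known pairs, weakly adherent to the left of strongly adherent, with lines at the group means and every axis spanning the same number of log2 units. The groups do not overlap for ITGA2/ITGB1 (means of -1.82 in weakly and -2.13 in strongly adherent cells) and ITGAV/ITGB3 (4.99 in weakly and 4.29 in strongly adherent cells).

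The genes whose level across the 5 libraries was most like that of ITGA2, by the root mean square difference of log2 CPM centred on each gene's mean, were FAM208A (0.02), ZNF780B (0.02) and CPD (0.02). Those most like ITGB3 were FOXQ1 (0.05), JAG2 (0.11) and NREP (0.11). These were the closest of 9343 and 9344 genes averaging 10 CPM or more, and the likeness over 5 libraries is a description only. FOXQ1, a forkhead transcription factor, had 13.1, 17.7 and 23.0 CPM in weakly adherent cells on 6, 12 and 15 March, against 23.9 and 25.4 CPM in strongly adherent cells on 6 and 15 March.

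Around the chains, 109 other genes of the integrin pathway were tested, of which 3 were called higher and 3 lower, where 1.77% and 0.918% of all tested genes were. The lists were chosen with earlier results of these data known, those of CYR61 and LAMA5 among them. An excess over the shares of all genes can therefore not be read as a result about the pathway. With the date block these counts were 9 and 16, where 5.93% and 5.21% of the 13615 genes tested in that fit were. With the coding length trend removed 0 were higher and 3 lower. With strongly adherent cells of 6 March left out, 1 was higher.

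Among ligands, 1 of 27 tested genes was called higher and 3 lower, where 1.77% and 0.918% of all tested genes were. The median log2 fold change of the ligands was -0.06. CYR61, a matricellular ligand of integrins with ITGAV, fell to 685 ± 50.3 CPM (SD, n = 3) in weakly adherent cells, against 1131 ± 47.4 CPM (SD, n = 2) in strongly adherent cells (log2 fold change -0.72, SE 0.08, adjusted p = 0.00057 by edgeR). Its relative CTGF fell to 160 ± 9.18 CPM in weakly adherent cells, against 246 ± 14.1 CPM in strongly adherent cells (SD, n = 3 and 2, log2 fold change -0.62, SE 0.08, adjusted p = 0.00082 by edgeR). THBS1, thrombospondin, was 1.31-fold lower (adjusted p = 0.035 by edgeR), a call that ended with any 1 library left out (adjusted p from 0.0501 to 0.40). The laminin chain LAMA5, a ligand of the ITGA3 and ITGA6 integrins, was 1.40-fold higher (adjusted p = 0.0053 by edgeR). It has a coding sequence of 11088 bases, its log2 fold change was 0.0015 with the coding length trend removed, and it was no longer called (adjusted p = 0.069) once strongly adherent cells of 6 March were left out. The differences in CYR61 and LAMA5 were already known when the lists were made.

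Among the hemidesmosome partners of ITGB4, 2 of 4 tested genes were called higher, where 1.77% of all tested genes were. KRT5 and KRT14, the others of the 6 listed, did not pass the filter on low counts. DST, the plakin dystonin, had 350 ± 21.5 CPM (SD, n = 3) in weakly adherent cells and 154 ± 16.8 CPM (SD, n = 2) in strongly adherent cells (log2 fold change 1.19, SE 0.09, adjusted p = 5.5e-05 by edgeR). PLEC, plectin, which binds the ITGB4 tail, was 1.27-fold higher (adjusted p = 0.043 by edgeR), a call that ended with any 1 library left out (adjusted p from 0.054 to 0.36). Their longest annotated coding sequences have 22386 and 14055 bases, and which transcripts these cells expressed is not known. With the coding length trend removed the log2 fold changes were 0.30 for DST (adjusted p = 0.069 by edgeR) and -0.27 for PLEC (adjusted p = 0.17 by edgeR). ITGB4 itself did not pass in either fit.

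Of the genes that act on integrins from inside the cell, none passed without the date block. Among 16 activators and adaptors, 4 had a positive log2 fold change. Their median was -0.12, against -0.00054 over all tested genes. The fit blocked by date called 4 of them lower, where 5.21% of all tested genes were, and 0 higher, where 5.93% were. On data simulated without a date effect, 14.6% of that fit's calls were false. The list was also chosen with earlier results known, so these counts cannot be read as a result about activators. The tensin TNS1 had 0.760, 0.562 and 0.727 CPM in weakly adherent cells against 1.46 and 1.23 CPM in strongly adherent cells (log2 fold change -0.96, adjusted p = 0.14 by edgeR). APBB1IP, the Rap1 effector that brings talin to integrins, had a log2 difference of -0.39 (adjusted p = 0.17 by edgeR, or 0.00074 with the date block). Among 9 inhibitors the smallest p belonged to NISCH (0.18, adjusted p = 0.36 by edgeR, or 0.037 with the date block) and ITGB1BP1, which competes with talin for the ITGB1 tail (0.15, adjusted p = 0.37 by edgeR). Among 18 trafficking genes those were CLIC3 (-0.24, adjusted p = 0.44) and NUMBL (-0.19, adjusted p = 0.44), and the median was -0.07.

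The 14 tested tetraspanins and membrane partners had a median of -0.05, with the smallest p for the caveolin CAV1 (-0.20, adjusted p = 0.27 by edgeR, or 0.013 with the date block) and the urokinase receptor PLAUR (-0.17, adjusted p = 0.32). Of 17 kinases and scaffolds downstream of integrins, with a median of -0.02, the Src family members FYN (-0.29, adjusted p = 0.17 by edgeR, or 0.029 with the date block) and YES1 (0.25, adjusted p = 0.18 by edgeR, or 0.0496 with the date block) had the smallest p, in opposite directions.

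**Figure D5:**
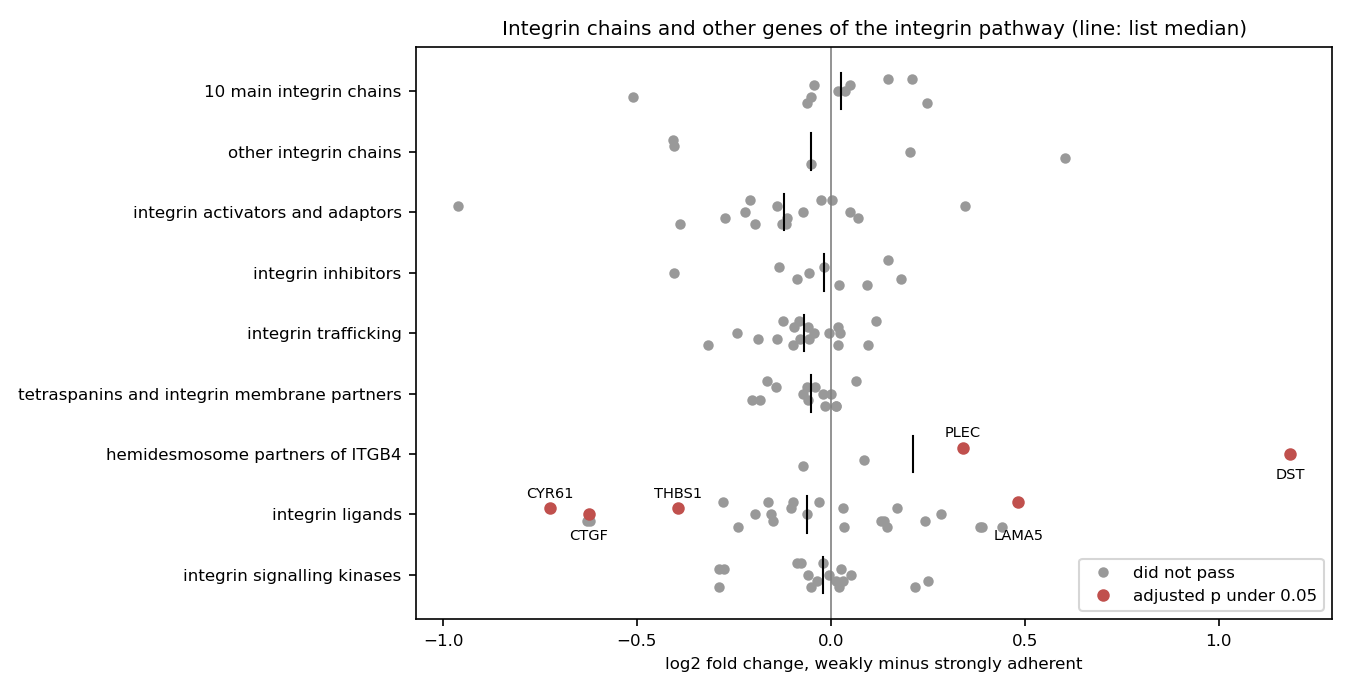
Log2 fold change (weakly minus strongly adherent) of each tested gene of the 10 main integrin chains and of 8 lists of integrin pathway genes, with lines at the list medians and the called genes named. The 6 called genes are ligands or hemidesmosome partners, from CYR61 at -0.72 to DST at 1.19.

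Of 16 other integrin chains, 5 were tested and 0 called, and 4 of these reached a mean of 2 CPM. ITGAE, which pairs with ITGB7 on lymphocytes, was the highest at 23.4 ± 1.14 CPM in weakly and 20.3 ± 3.93 CPM in strongly adherent cells (SD, n = 3 and 2), and the collagen receptor chain ITGA1 lay at 10.3 ± 0.699 CPM in weakly and 10.7 ± 1.24 CPM in strongly adherent cells. ITGB2, known from leukocytes, had 5.75, 7.97 and 6.63 CPM in weakly adherent cells on 6, 12 and 15 March, against 8.66 and 9.27 CPM in strongly adherent cells on 6 and 15 March (log2 fold change -0.41, SE 0.16, adjusted p = 0.24 by edgeR, or 0.0048 with the date block). The groups did not overlap for 2 of the 5 tested chains, ITGB2 and ITGA10, where 30.0% of all tested genes did not overlap. Of 4 leukocyte markers, CD68 alone was above 1 CPM, PTPRC was at most 0.255 CPM, and CD3E and MS4A1 were at 0. Their sum was 115 to 130.3 CPM in weakly and 124 to 145 CPM in strongly adherent cells, and its part in the ITGB2 difference was not tested. ITGA10 had a log2 fold change of 0.60 (SE 0.27, adjusted p = 0.33 by edgeR) at 2.52 ± 0.694 CPM in weakly and 1.66 ± 0.0413 CPM in strongly adherent cells.

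The label of the cell line was checked on its markers. All 7 genes expected in this mesenchymal line, among them VIM and CD44, were above 1 CPM, while of 5 genes listed as low or absent the hormone receptor genes ESR1 and PGR were at 0 and the other 3 were above 1 CPM. These were ERBB2, at 85.3 to 86.6 CPM in weakly and 82.7 to 93.9 CPM in strongly adherent cells, EPCAM, at 21.4 to 25.8 CPM in weakly and 19.4 to 21.2 CPM in strongly adherent cells, and CDH1, at 1.18 to 1.57 CPM in weakly and 1.27 to 2.07 CPM in strongly adherent cells. Summed markers of fibroblasts lay at 20.1 to 23.9 CPM in weakly and 18.4 to 24.8 CPM in strongly adherent cells, and those of endothelial cells at 3.68 to 4.63 CPM in weakly and 3.39 to 3.91 CPM in strongly adherent cells.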

How the data were processed

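The authors deposited raw gene counts. They also deposited log2 values, which equal log2(count / size factor + 1) as tested on the file. Libraries were made with a stranded kit and read as 50 bp single ends, per the labels' protocols. Tools in the submitters' processing notes are STAR, HTSeq, cutadapt, FastQC and DESeq2, with build hg19; versions, gene annotation and strandedness of counting were not given in the sources used here. In GENCODE, exons on the opposite strand overlap those of ITGA5, ITGA6, ITGAV, ITGB1 and ITGB8, and on the same strand those of ITGB3. Such reads cannot be told apart without the counting settings. The 5 HTSeq rows of reads outside genes stayed out of library sizes and tests.

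The deposited counts went into edgeR 4.0.16 (R 4.3.3) with filterByExpr and TMM scaling, a robust quasi-likelihood F test over all genes, and a threshold of 0.05 on p adjusted by Benjamini and Hochberg. Log2 fold changes run weakly minus strongly adherent, SE and 95% intervals follow from the F statistic, and CPM are TMM-scaled. The biological coefficient of variation was 7.91%. For ratios and shares, a two-sided exact permutation test used all 10 assignments of libraries. Lengths came from GENCODE release 29 by symbol, which covered the coding length of 88.5% of tested genes. For each gene the longest annotated coding sequence and transcript were used. Alternatives were DESeq2 1.42.0, limma 3.58.1 (voom, and on the deposited log2 values), 2 other filters, DESeq2 size factors, the date block, removal of length trends (natural spline, 5 degrees of freedom) and each library left out. On data simulated without a date effect, the share of false calls was above the nominal threshold, more so with the date block than without. Figures were drawn with matplotlib 3.10.9.

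Titles give the date, so libraries of the same date were taken as pairs. Deviations from group means had r = 0.41 within the 6 March pair and r = 0.24 within the 15 March pair. With 2 strongly adherent libraries, the deviation of one is the other's with its sign turned, which ties both r together. No r for libraries of unlike dates was set beside them, so they cannot show whether the pairing holds. Replicates of a group differed by more than sampling noise (chi-square over degrees of freedom, 7.19 to 12.0). The chains and the pathway lists were chosen with earlier results of these data known. Named are all 10 chains, from each list the 2 of smallest p, the 3 other integrin chains with the highest mean, and the 3 genes most like each of the 2 chains with the smallest p; THBS1 and LAMA5, called in their list, the untested chains of the closing section and FOXQ1's values were singled out after their values were seen.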

Additional observations from a re-analysis of the deposited data

How the results depend on the processing

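No alternative without a date block called any of the 10 chains. With the date as replicate block in edgeR, 1 chain was called higher and 1 lower, where 808 and 709 of 13615 genes were. In limma-voom with the date as random block the chains gave the same counts, where 682 and 531 of 13297 genes were called. With the replicate block and the coding length trend removed as well, 0 chains were higher and 1 lower, where 597 and 686 of 13615 genes were. ITGA2 and ITGB3 kept their direction in all 16 alternatives, with log2 fold changes of 0.15 to 0.35 and -0.74 to -0.35. So did ITGA3, at -0.077 to -0.032, and ITGB1, at -0.12 to -0.019, neither of which was called in any. With the coding length trend removed, the log2 fold change turned to -0.0050 for ITGA5, -0.13 for ITGB4 (-0.088 with the replicate block) and -0.27 for PLEC. ITGB8 turned to -0.20 with the replicate block in edgeR, with and without the coding length trend, and to -0.091 with the random block. Over the mean of the within-date differences (replicate block), the log2 ratio of ITGA6 to ITGB4 differed by -0.037 and the ITGB8 share by -0.0034 percentage points. The cause was not tested. Pathway genes called were 9 higher and 16 lower with the replicate block, and 0 higher with the coding length trend removed.

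With each library left out in turn, log2 fold changes ran from -0.016 to 0.055 for ITGA5, -0.042 to 0.15 for ITGA6, -0.0080 to 0.32 for ITGAV, -0.041 to 0.080 for ITGB4, -0.16 to 0.088 for ITGB5 and -0.18 to 0.56 for ITGB8. Log2 ratio differences ran from -0.037 to 0.079 for ITGA3/ITGB1, -0.066 to 0.11 for ITGA6/ITGB4, -0.10 to 0.48 for ITGAV/ITGB5 and -0.32 to 0.39 for ITGAV/ITGB8. Share differences ran from -0.25 to 1.78 percentage points for ITGA6, -1.88 to 0.596 for ITGB1, -1.14 to 1.27 for ITGB5 and -0.0034 to 0.023 for ITGB8. Pathway genes called higher were 1 to 4. ITGB8, with 17 to 52 reads, and ITGB3, with 96 to 196, have the lowest counts, and weakly adherent replicates of both differed beyond counting error. Removing the transcript length trend was chosen after seeing the data and called 0 of the chains, where 183 of 13297 genes were higher and 172 lower.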

Other observations

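Of the 16 other integrin chains, 11 had too few reads to be tested, at most 41 reads over all 5 libraries, and ITGA8 and ITGAD were at 0 throughout. ITGA7, a laminin receptor chain of muscle, was the highest of these, with 13, 8 and 10 reads in weakly adherent cells on 6, 12 and 15 March, against 6 and 4 reads in strongly adherent cells on 6 and 15 March. ITGB6, which like ITGB8 binds latent TGF-beta as a partner of ITGAV, had 2, 5 and 4 reads in weakly and 2 and 5 reads in strongly adherent cells. ITGA4, a fibronectin receptor chain of leukocytes, had 1 read in the weakly adherent library of 12 March, 1 in the strongly adherent library of 15 March and 0 in the others.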
